A study of Mus musculus with 2 samples.

Results

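The 7 genes described here encode the miRNAs miR-199, miR-214, miR-140 and miR-218, which are known from mesenchyme and stroma, the loose connective cells of a developing organ. They were chosen by name, as members of a mesenchymal set, and not by their counts, though with earlier results of these data known. They are Mir199a-1, Mir199a-2, Mir199b, Mir214, Mir140, Mir218-1 and Mir218-2, which make up 7 of the 1973 miRNA genes in the files. All 7 had own-strand reads in both libraries. The tissue was kidney of B6NCrl mouse embryos at 15.5 days of development, of both sexes and reported healthy, with no treatment or mutant allele. Kidneys of 78 embryos were pooled for replicate 1 and of 62 embryos for replicate 2, and these libraries form 1 group. The labels call them biological replicates. The sequenced RNA was the size class under 30 nt.

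A miRNA gene is transcribed into a longer RNA that folds into a hairpin. Cutting of the hairpin leaves mature arms of about the length of a sequencing read, named 5p and 3p by the end they come from. Bases 2 to 8 of an arm, its seed, pair with target messenger RNAs and largely set which messages the miRNA represses. Mir199a-2 and Mir214 are made from Dnm3os, a noncoding transcript that runs opposite to the dynamin gene Dnm3, is driven in mesenchyme by the transcription factor Twist1, and is needed for normal skeletal growth in mice. miR-199 and miR-214 are also known from fibroblasts and from fibrosis of the adult kidney. Mir140 lies in Wwp2, which encodes a ubiquitin ligase, and is best known from cartilage, where Sox9 acts upstream of it. Mir218-1 and Mir218-2 lie in Slit2 and Slit3, which encode secreted guidance proteins, and miR-218 represses their receptor Robo1. miR-218 is also known as a motor neuron miRNA. Slit2 and its receptor Robo2 are known in the kidney for limiting where the ureteric bud grows out.

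The listed mature arms show which of the genes make identical products. The arms listed for the 7 genes in RefSeq (GRCm38.p6) are given 5′ to 3′, with the seed in capitals.
miR-199a-5p (Mir199a-1 and Mir199a-2): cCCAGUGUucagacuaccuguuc
miR-199a-3p (Mir199a-1 and Mir199a-2) and miR-199b-3p (Mir199b): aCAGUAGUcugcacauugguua
miR-214-5p (Mir214): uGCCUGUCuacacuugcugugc
miR-214-3p (Mir214): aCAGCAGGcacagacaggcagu
miR-140-3p (Mir140): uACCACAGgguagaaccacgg
miR-218-5p (Mir218-1 and Mir218-2): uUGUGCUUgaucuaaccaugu
miR-218-1-3p (Mir218-1): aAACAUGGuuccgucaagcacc
miR-218-2-3p (Mir218-2): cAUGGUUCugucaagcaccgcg
No 5p arm is listed for Mir140 or Mir199b, so the seeds of those arms were not compared. These 8 sequences carry 8 different seeds, so no listed seed is shared between the miR-199, miR-214, miR-140 and miR-218 groups. The 3p arm of miR-199 is identical in all 3 Mir199 genes. The 5p arm is identical in Mir199a-1 and Mir199a-2, and its best ungapped match in the Mir199b hairpin differs from it by C10U, with the base of the arm first, the position counted from 1 at its 5′ end and the base of the hairpin last. miR-218-5p is identical in both Mir218 genes. miR-218-1-3p differs from its best match in the Mir218-2 hairpin by A1G and C12U. Few other arms in the table carry these seeds, and the genes of those that do were at or near 0 own-strand reads. Mir761 shares the seed of miR-214-3p and Mir496b that of miR-218-1-3p, and both had 0 reads in each library. Mir497b shares the seed of miR-140-3p and had 0 reads in replicate 1 and 1 read in replicate 2. Mir7002 shares the seed of miR-218-5p and had 1 read in replicate 1 and 0 reads in replicate 2.

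The hairpins show how much of each gene can be told apart from its copies by a short read. The sequences of the 5 genes with a copy are given 5′ to 3′ from RefSeq, with capitals where a stretch of at least 20 nt also occurs in a miRNA gene elsewhere in the GENCODE M21 annotation.
Mir199a-1: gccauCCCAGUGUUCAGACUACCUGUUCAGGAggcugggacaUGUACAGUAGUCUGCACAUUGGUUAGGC
Mir199a-2: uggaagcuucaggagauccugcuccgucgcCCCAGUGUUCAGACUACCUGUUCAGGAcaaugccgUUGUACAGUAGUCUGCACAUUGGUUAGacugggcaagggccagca
Mir199b: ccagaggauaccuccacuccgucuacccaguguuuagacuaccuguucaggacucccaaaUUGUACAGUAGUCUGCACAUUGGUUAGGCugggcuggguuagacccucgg
Mir218-1: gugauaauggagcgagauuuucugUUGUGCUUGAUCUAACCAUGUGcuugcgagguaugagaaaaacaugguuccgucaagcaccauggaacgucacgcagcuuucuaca
Mir218-2: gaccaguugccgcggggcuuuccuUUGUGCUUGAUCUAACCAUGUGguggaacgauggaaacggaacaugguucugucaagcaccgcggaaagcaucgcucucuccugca
The shared stretches cover 78.6% of the Mir199a-1 hairpin, 49.1% of Mir199a-2, 26.4% of Mir199b and 20% of each Mir218 hairpin. In Mir199a-1 and Mir199a-2 they take in both arms, in Mir199b the 3p arm alone, and in the Mir218 genes the 5p arm alone. No gene outside the miR-199 and miR-218 groups shares these stretches. The hairpins of Mir214 and Mir140 hold no such stretch.

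**Figure D1:**
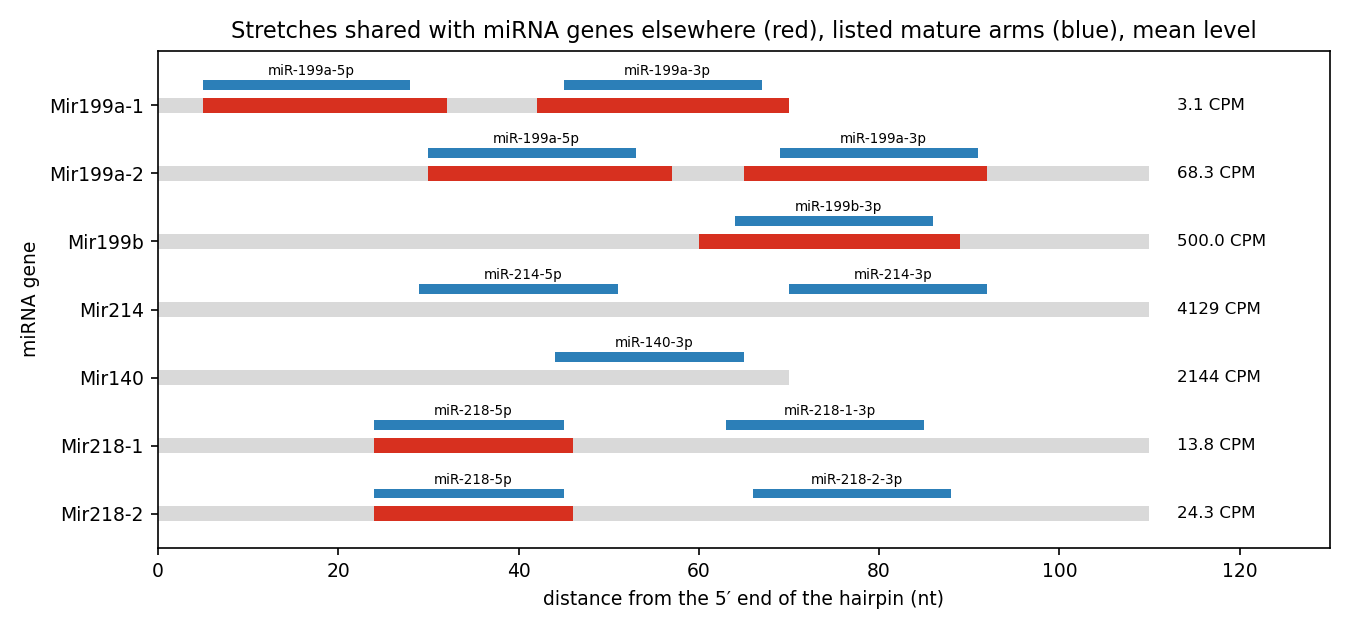
Map of the 7 hairpins by distance from the 5′ end in nt, with the listed mature arms in blue and, in red, stretches of at least 20 nt that also occur in another miRNA gene. The mean level over 2 libraries stands at the right: the genes with no red stretch, Mir214 and Mir140, have 4129 and 2144 CPM, and Mir199a-1, the most covered, has 3.13 CPM. Levels between these do not follow coverage. Mir218-1 and Mir218-2, each 20% covered, have 13.8 and 24.3 CPM. Mir199b, 26.4% covered, has 500 CPM, and Mir199a-2, 49.1% covered, has 68.3 CPM.

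In the mm10 assembly, with positions and annotation from GENCODE M21, the members lie as follows. Mir199a-2 (ENSMUSG00000070126.1) lies on the plus strand of chromosome 1, from 162217814 to 162217923. Mir214 (ENSMUSG00000065516.1) follows on the same strand, from 162223368 to 162223477, with 5444 nt between the hairpins. Both overlap an exon of Dnm3os and an intron of Dnm3, which runs the other way. Mir199a-1 (ENSMUSG00000065547.1) is on the minus strand of chromosome 9, from 21496495 to 21496564, opposite to an intron of the dynamin gene Dnm2. Mir199b (ENSMUSG00000092807.1) is on the plus strand of chromosome 2, from 32318460 to 32318569, opposite to an intron of the dynamin gene Dnm1. Mir140 (ENSMUSG00000065439.1) overlaps an exon annotated to Wwp2, on the same strand of chromosome 8, from 107551244 to 107551313. Mir218-1 (ENSMUSG00000065603.1) is intronic to Slit2 on chromosome 5, from 48223942 to 48224051, and Mir218-2 (ENSMUSG00000065583.1) is intronic to Slit3 on chromosome 11, from 35616816 to 35616925, each on the strand of its host.

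The libraries held 7434182 (replicate 1) and 5863293 (replicate 2) reads on the own strand of miRNA genes, and levels are given as CPM, counts scaled to 1000000 such reads. Another 3901906 and 3222867 reads, or 0.525 and 0.5497 per own-strand gene read, matched several loci and were assigned to no gene. The files do not say to which genes those reads belong, so the level of a gene with shared arms is that of the reads assigned to it alone. With 1 group there is no contrast, and the mean and SD over 2 libraries describe their spread. Intervals are exact Clopper-Pearson intervals and cover counting error only. In a whole organ, fewer cells of a type and less RNA per cell cannot be told apart.

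The members together took 0.690% of own-strand gene reads in replicate 1 (51321 reads, 95% interval 0.684% to 0.696%) and 0.686% in replicate 2 (40232 reads, 0.6795% to 0.693%). The difference of 0.00417 percentage points, replicate 1 minus replicate 2, has a 95% Newcombe interval of -0.00478 to 0.0131, so a difference in the summed share was not detectable at this depth. Nearly all of it came from the genes with no copy: Mir214 and Mir140 supplied 91.0% of the members' reads in replicate 1 and 91.3% in replicate 2. The 5 genes of the Mir199 and Mir218 groups supplied 8.99% and 8.71%. The levels of the 7 genes spanned from 3.13 to 4129 CPM.

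Mir214, a product of Dnm3os, was the highest member. It had 27947 reads, or 3759 CPM (95% interval 3715 to 3804), in replicate 1 and 26378 reads, or 4499 CPM (4445 to 4553), in replicate 2. The mean was 4129 ± 523 CPM (SD, n = 2), rank 34 among all 1973 genes. Its neighbours in the order of levels were Mir411 of the Dlk1-Dio3 domain at 4740 ± 1221 CPM, from which it differed by less than the spread of Mir411, and Mir615 of the Hoxc cluster at 4033 ± 487 CPM, from which it differed by less than the spread of either gene. Mir214 was below Mir143, a smooth muscle miRNA and the highest of the other mesenchymal genes listed here, which reached 24616 CPM (replicate 1) and 29016 CPM (replicate 2). It was above Mir145a, which is transcribed together with Mir143, at 337 and 350 CPM.

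Mir140, the cartilage miRNA, was next. It had 18758 reads, or 2523 CPM (2487 to 2560), in replicate 1 and 10348 reads, or 1765 CPM (1731 to 1799), in replicate 2. The mean was 2144 ± 536 CPM (SD, n = 2), and its rank of 59 lay between Mir369 at 2312 ± 354 CPM and Mir298 at 2141 ± 356 CPM, from which it did not differ beyond the spread. It was also the highest of the 3 genes listed for cartilage. Mir455, which lies in the collagen gene Col27a1, had 752 CPM in replicate 1 and 889 CPM in replicate 2, and Mir675, within H19, had 71.7 and 69.1 CPM. Mir140 was thus higher in replicate 1 by a log2 ratio of 0.52, while Mir455 was lower there at -0.24 and Mir675 stood at 0.05.

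The Mir199 genes stood far lower and far apart. Mir199b had 3910 reads, or 526 CPM, in replicate 1 and 2779 reads, or 474 CPM, in replicate 2, with a mean of 499.96 ± 36.8 CPM (SD, n = 2) at rank 104. Mir199a-2 had 437 reads, or 58.8 CPM, and 456 reads, or 77.8 CPM, with a mean of 68.3 ± 13.4 CPM at rank 198. Mir199a-1 had 25 reads, or 3.36 CPM (2.18 to 4.96), and 17 reads, or 2.899 CPM (1.69 to 4.64), with a mean of 3.13 ± 0.328 CPM at rank 333. In the order of all genes, Mir199b stood between Mir676 and Mir34c and Mir199a-2 between Mir3074-1 and Mir301b, none of which differed from it beyond the spread. The order of the 3 genes was the same in both libraries and their ranges did not overlap. In total, shared stretches cover the fewest bases in Mir199b, at 29 nt, though its longest stretch exceeds those of Mir199a-2 (27 nt) and Mir199a-1 (28 nt). They cover nearly the same total in Mir199a-2 (54 nt) and Mir199a-1 (55 nt). These 2 genes differed by 17.5 times in reads in replicate 1 and 26.8 times in replicate 2. The 5′ side of the Mir199b hairpin differs from miR-199a-5p by C10U alone. The level of Mir199b and its share of the family can depend on how the alignment treated a mismatch of 1 base, which the sources used here do not state. The counts do not say which arm the reads came from, so this was not tested. The part of reads that match several loci in this order was not tested.

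Mir199b supplied 89.4% of the reads assigned to the Mir199 genes in replicate 1 (95% interval 88.5% to 90.3%) and 85.5% in replicate 2 (84.2% to 86.6%), with Mir199a-2 at 9.995% and 14.0%. These intervals do not overlap between the libraries, so the balance of the assigned reads differed by more than counting error. Mir199a-1 held 0.572% and 0.523% of them, a difference of 0.0491 percentage points (95% Newcombe interval -0.314 to 0.384) that was not detectable at this depth. Between genes of the same transcript, Mir214 had 63.95 reads per Mir199a-2 read in replicate 1 (58.2 to 70.4) and 57.8 in replicate 2 (52.7 to 63.6), with a mean of 60.9 ± 4.32 (SD, n = 2). The unequal yield of Mir199a-2 and Mir214 thus held in both pools. It sets a hairpin with 0 nt of shared sequence against another with both arms shared, so it does not measure their true proportion.

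The Mir218 genes were low and close to each other. Mir218-2, in Slit3, had 139 reads, or 18.7 CPM (15.7 to 22.1), in replicate 1 and 175 reads, or 29.8 CPM (25.6 to 34.6), in replicate 2, with a mean of 24.3 ± 7.88 CPM (SD, n = 2) at rank 239. Mir218-1, in Slit2, had 105 reads, or 14.1 CPM (11.6 to 17.1), and 79 reads, or 13.5 CPM (10.7 to 16.8), with a mean of 13.8 ± 0.4598 CPM at rank 268. Mir208b and Mir3099 next to Mir218-2, and Mir3058 and Mir702 next to Mir218-1, differed from their neighbour by less than the spread. Mir218-2 was higher in both libraries, though in replicate 1 the intervals of the levels overlap. It held 57.0% of the reads of the pair in replicate 1 (50.5% to 63.3%) and 68.9% in replicate 2 (62.8% to 74.5%). The difference, replicate 1 minus replicate 2, was -11.9 percentage points, with a 95% Newcombe interval of -20.2 to -3.45, so the balance of the assigned reads differed by more than counting error. Each gene has a 3p arm of its own and the same 5p arm, and reads of the 5p arm can be absent from both counts alike. Of the 9 neural genes measured, listed because miR-218 is known from motor neurons, 4 had 0 reads in both libraries, among them the 3 Mir124a genes, and the list summed to 585 and 735 CPM, led by Mir132 at 374 and 419 CPM. Mir137, with no shared sequence, had 126 CPM in replicate 1 and 218 CPM in replicate 2, a log2 ratio of -0.79 (95% exact binomial interval -0.91 to -0.66), past 1.5-fold and in the direction of Mir218-2. It was the only one of the 4 neural genes averaging 100 or more reads to pass that fold. Mir132 stood at -0.17 and Mir128-1 at -0.36, while Mir128-2 went the other way at 0.39. Over all 264 genes with that count, 15.9% passed the fold, with 14.8% lower in replicate 1. So 1 gene in 4 is no result about the neural genes. Since 7 of the 9 share sequence with another miRNA gene, the counts of 0 do not show absence, and any neural part in the Mir218 counts was not tested.

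**Figure D2:**
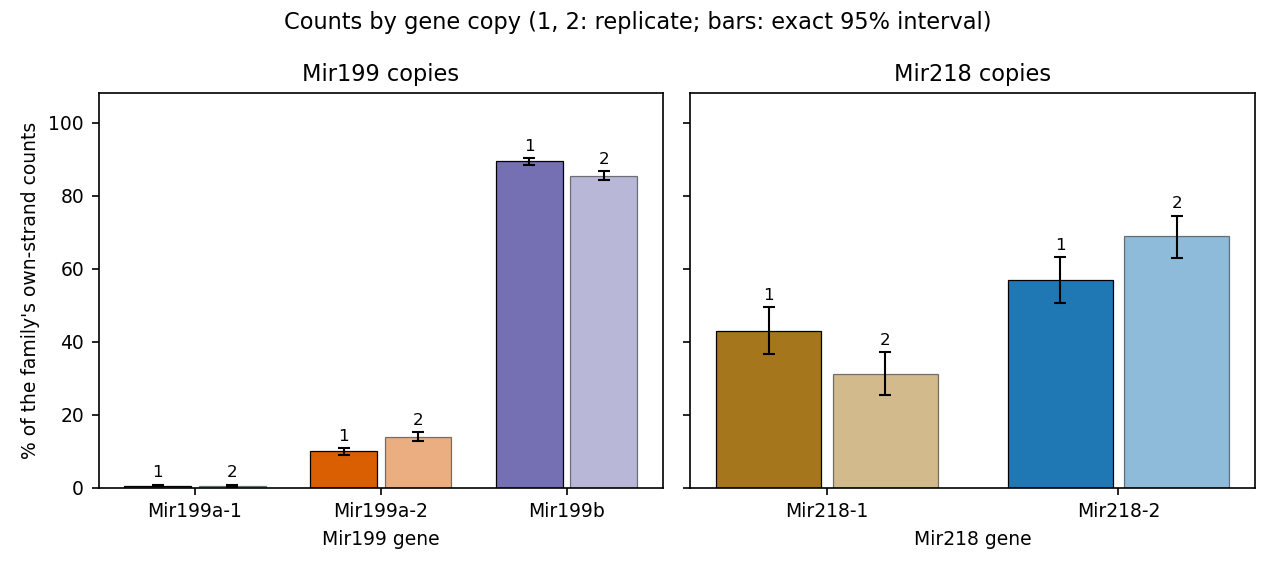
Percent of the own-strand reads of a family assigned to each of its genes, for the Mir199 genes (left) and the Mir218 genes (right). Bars marked 1 and 2 are replicates 1 and 2 and lines are exact 95% intervals: Mir199b held 89.4% and 85.5%, and Mir218-2 held 57.0% and 68.9%.

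**Figure D3:**
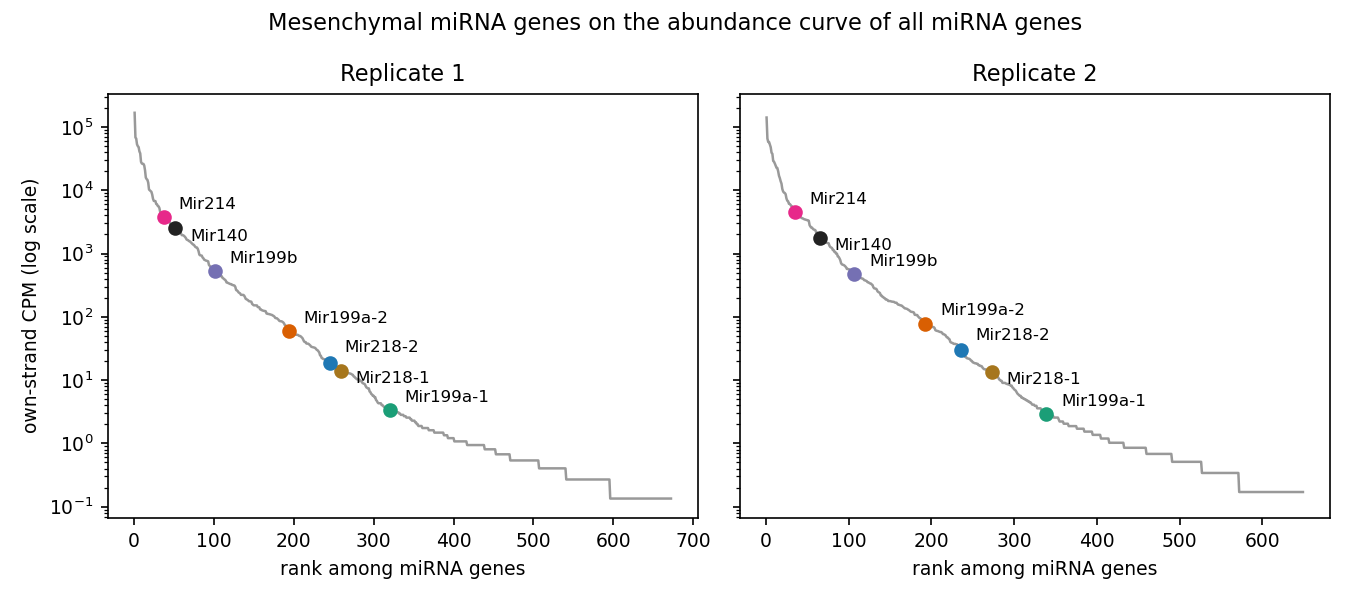
Own-strand CPM on a log scale against rank for miRNA genes with at least 1 read (grey line), with the 7 mesenchymal genes as points, in replicate 1 (left) and replicate 2 (right). Mir214 lies at ranks 38 and 35, Mir140 at 52 and 65, and Mir199a-1 at 320 and 339.

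Across all genes with listed arms, counts were low where every listed arm was shared, but not where only some were. Of the 46 genes in which every listed arm also occurs in another miRNA gene, 78.3% had 0 reads in both libraries and 0 reached 1000 CPM. Among the 814 genes with no shared arm, 31.4% had 0 reads in both and 8.97% reached 1000 CPM, Mir214 and Mir140 among them. Of the 56 genes with some arms shared, 14.3% had 0 reads in both, the lowest share of the 3 classes, and 8.93% reached 1000 CPM, close to the class with no shared arm. Their median was 15.7 CPM in replicate 1 and 14.0 CPM in replicate 2. It was 0.404 and 0.512 CPM with no arm shared, and 0 in both libraries with every arm shared. Mir199b was the highest of the 46 genes with every listed arm shared, with Mir199a-2 at rank 5 and Mir199a-1 at rank 8. RefSeq lists only the 3p arm for Mir199b and for Mir140, so the class of each rests on that arm. Mir218-2 and Mir218-1 were in the middle of their class, at ranks 25 and 30 of 56. These figures are a description, since genes in a class can be copies of each other, and the table of arms is not complete.

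**Figure D4:**
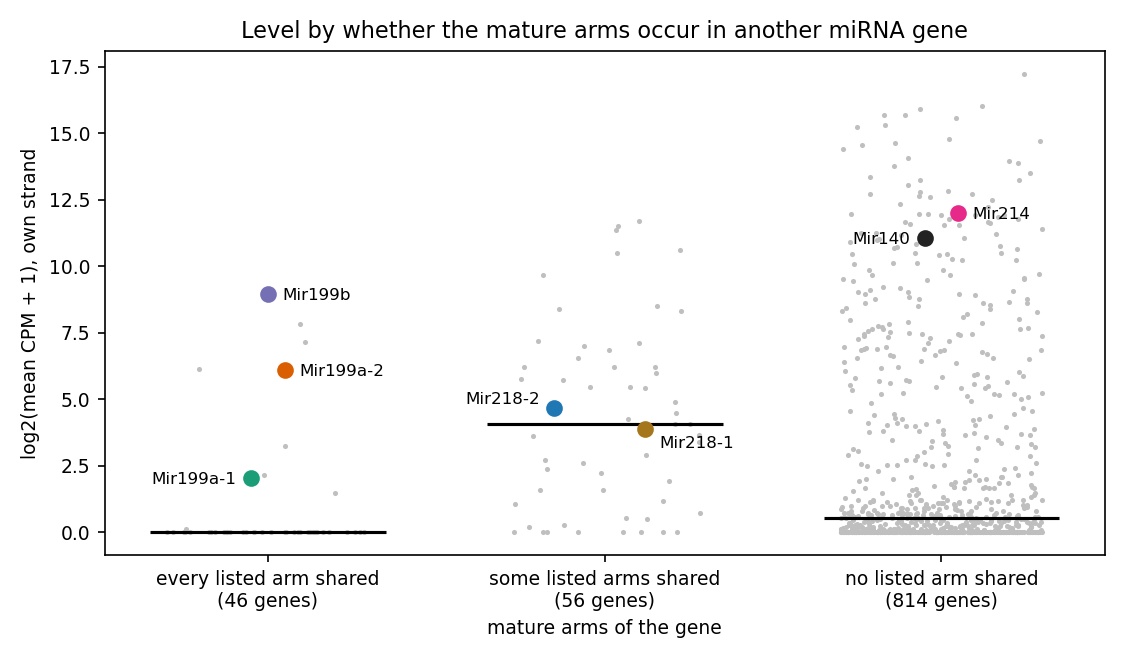
Log2 of mean own-strand CPM plus 1 for genes grouped by whether every, some or no listed mature arm occurs in another miRNA gene (46, 56 and 814 genes), with the 7 mesenchymal genes in colour and the median of each group as a black line. Mir199b is the highest of its group, and Mir218-1 and Mir218-2 lie near the median of theirs.

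The pools were set against each other by the ratio of replicate 1 over replicate 2, which compares libraries and not conditions. Of the 7 members, 5 had counts that averaged 100 or more and 1 of these, Mir218-2, differed by 1.5-fold or more, at a log2 ratio of -0.67 (95% exact binomial interval -1.01 to -0.35). Over all 264 genes with that count, 15.9% differed by as much, 1.14% being higher and 14.8% lower in replicate 1, so 1 gene in 5 is near the background and no result about these genes. Mir199a-1 and Mir218-1, with mean counts of 21 and 92, were not counted. Their ratios, 0.21 (-0.73 to 1.19) and 0.07 (-0.37 to 0.51), have intervals that hold 0.

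Mir214 and Mir140 moved in opposite directions. Mir140 had a log2 ratio of 0.52 (0.48 to 0.55), and 8 of the 264 genes had a higher one. Mir214 had a log2 ratio of -0.26 (-0.28 to -0.23), in the middle of the range with 166 genes above it and 97 below. There were accordingly 1.49 Mir214 reads per Mir140 read in replicate 1 (1.46 to 1.52) and 2.55 in replicate 2 (2.49 to 2.61). Neither gene shares a stretch of at least 20 nt with another annotated miRNA gene. Mir199a-2, on the transcript of Mir214, moved the same way at -0.40 (-0.5965 to -0.21), and Mir199b stood at 0.15 (0.08 to 0.22). The median of the 5 members was -0.26, against -0.13 over the 264 genes.

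Scaling decided which gene passed the fold. TMM, a scaling that sets the bulk of genes level, raised every log2 ratio by 0.13, and DESeq2 size factors raised it by 0.16. Under TMM 14.4% of the 264 genes passed 1.5-fold and under DESeq2 size factors 13.6%, and under either 1 of the 5 members passed. That member was then Mir140, at 0.64 and 0.68, while Mir218-2 fell short at -0.55 and -0.51. All 7 members kept the sign of their ratio under both scalings. The ratio of Mir214 shrank to -0.13 under TMM and -0.099 under DESeq2 size factors.

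**Figure D5:**
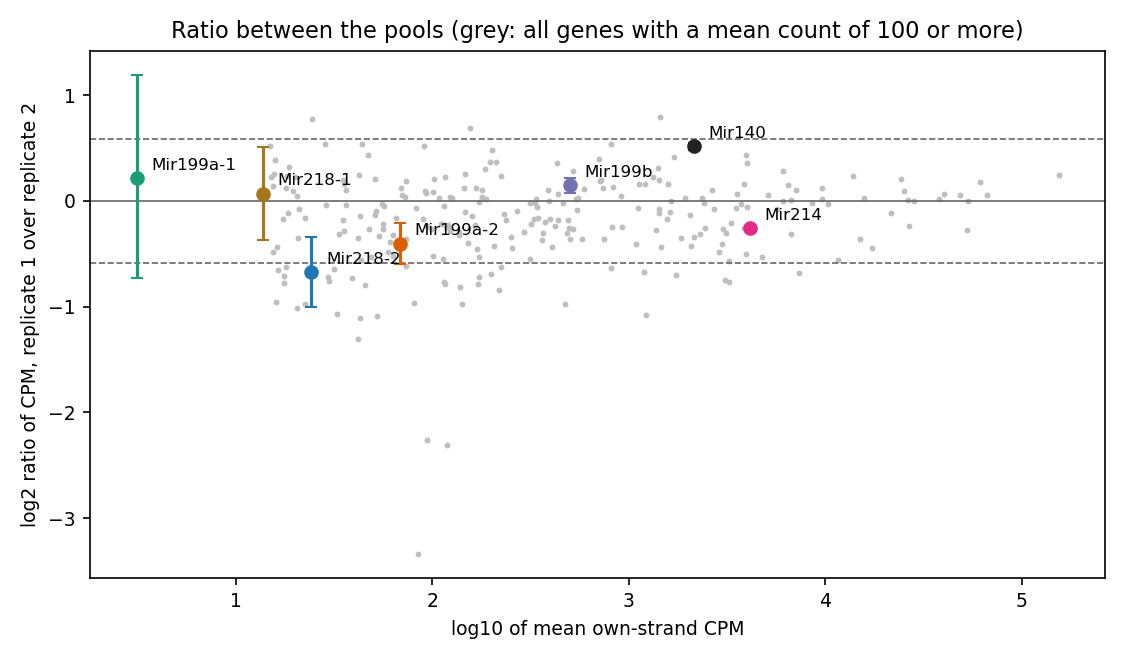
Log2 ratio of CPM, replicate 1 over replicate 2, against log10 of mean CPM for the 264 genes whose counts averaged 100 or more (grey) and the 7 mesenchymal genes (colour, with exact 95% binomial intervals). Dashed lines mark 1.5-fold: Mir218-2 lies past the lower line at -0.67, and Mir140 lies just inside the upper line at 0.52.

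Other gene groups of the organ gave the scale of these values. The other mesenchymal, smooth muscle and matrix genes, 8 in number, summed to 34547 and 39469 CPM in the replicates 1 and 2, and the 7 members to 6903 and 6862 CPM. Most of the sum of the 8 was Mir143, at 24616 and 29016 CPM, followed by Mir21a at 6742.5 and 6695 CPM. Counts of 6 of the 8 averaged 100 or more, and 0 of these passed 1.5-fold, against 15.9% of all 264 genes with that count. Mir22, a broadly expressed miRNA, was nearest to Mir214 in ratio, at -0.26. Endothelial Mir126a had 49708 and 47805 CPM. The 5 epithelial miR-200 genes summed to 24821 and 21320 CPM, and 0 of them passed 1.5-fold by library totals or TMM. Mir200b, the highest of the 5 in ratio at 0.43, passed it under DESeq2 size factors at 0.59. Over the 264 genes, 15.9% passed it by library totals, 14.4% under TMM and 13.6% under DESeq2 size factors. A count of 0 or 1 in lists of this size is no result about them. The 5 skeletal muscle genes measured summed to 971 and 661 CPM. Nearly all of it was Mir206, which had 959 and 659 CPM and a log2 ratio of 0.54 (0.49 to 0.5988), close to that of Mir140. Mir133b had 91 reads and 14 reads, a log2 ratio of 2.36 (1.54 to 3.29). Mir1a-1, Mir133a-1 and Mir133a-2 had 0 in both libraries, though these and Mir133b share sequence with other miRNA genes. Mir206 is the only gene of this list whose counts averaged 100 or more. It stayed within 1.5-fold by library totals and passed it under TMM at 0.67, as Mir140 did at 0.64. The part of muscle RNA in the Mir140 ratio was not tested.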

How the data were processed

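MicroRNA sequencing libraries of 2 pools of embryonic kidney were analysed. For each miRNA gene the deposited files give 3 raw read counts, for the own strand, for the opposite strand and for their sum. The authors took these counts from mm10 alignments and the GENCODE M4 annotation, per the notes beside the files; no aligner or counting program is named there. Lines for reads in no gene were kept out of library sizes: 17.7% (replicate 1) and 19.7% (replicate 2) were unmapped, 27.1% and 26.6% matched several loci, and 2.57% and 4.05% lay in no gene.

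Own-strand counts were scaled to CPM. The limit that 0 reads allow is 3 reads, which is 0.404 CPM in replicate 1 and 0.512 CPM in replicate 2. Gene names came from GENCODE M21, which named 1894 of 1973 genes. Sequences came from RefSeq, where all 7 genes matched. A stretch was called shared when 20 nt occurred, on either strand, in a miRNA gene elsewhere. No genome was searched. Genes were named as the 7 members, context lists, neighbours in rank of members of at least 10 CPM, and genes sharing a seed; the last were chosen after their sequences were seen. Members and lists were chosen with earlier results of these data known. With 1 group no test was made. Ratios have exact binomial intervals, and differences of shares have Newcombe intervals. The ratio intervals were tested on simulated counts that held counting error only, so their cover of spread between pools was not tested. Tools were Python 3.11.15 (numpy 2.4.6, pandas 2.3.3, scipy 1.17.1, matplotlib 3.10.9) and R 4.3.3 (edgeR 4.0.16, DESeq2 1.42.0, for scaling only).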

Additional observations from a re-analysis of the deposited data

Results flagged for a closer look

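Opposite-strand reads were not part of the levels reported for these genes. Mir214 had 2 of them in replicate 1 and 4 in replicate 2, and the value of 4 lies above the 3 counts that a count of 0 allows. Mir140 had 1 and 0 opposite-strand reads, and the other 5 genes had 0 in both libraries.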

How the results depend on the processing

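The share of the 7 genes in all gene reads depends on the total it is divided by. Its mean of 0.688% became 0.673% with counts of both strands, 0.344% with reads outside genes in the total, 0.814% without the most abundant gene and 0.740% without genes that share a stretch, because these change the total. The value of 0.740% keeps the 5 members that share a stretch in the sum. Left out of both the sum and the total, an alternative added after the data were seen, they leave 0.674%, below the mean. Leaving out a replicate gave 0.686% to 0.690% for this share, 85.5% to 89.4% for Mir199b among the Mir199 genes, 56.97% to 68.9% for Mir218-2 among the Mir218 genes and 57.8 to 64.0 Mir214 reads per Mir199a-2 read. Counting both strands kept each of these 3 balances within 1 SD, by construction. The Mir199 and Mir218 genes had 0 opposite-strand reads, and Mir214 had only 2 in replicate 1 and 4 in replicate 2. The 42 genes past 1.5-fold between the libraries became 84 when counts had to average only 10, 15 when they had to average 1000 and 9 at a fold of 2, by construction, and 38 with TMM and 36 with DESeq2 size factors. A pseudocount of 1 CPM kept all 7 log2 ratios within their intervals. Under TMM and under DESeq2 size factors, the ratios of Mir199b, Mir214 and Mir140 left their intervals and those of the other members stayed within. No paired analysis was possible because there is 1 group. Ratios need both libraries, so neither was left out of them. Counting error is largest, relative to the level, for Mir199a-1 and the Mir218 genes, which have the fewest reads. They also share arms with other genes, and reads that matched several loci were assigned to no gene.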
